A study of Mus musculus with 9 samples.

Results

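The transcripts of 55 regulators of DNA methylation and chromatin were followed in mouse oocytes at metaphase II, the arrest in which eggs are ovulated. The genes were chosen by symbol and not by their values. They write, remove, protect or bind DNA methylation, methylate, demethylate or acetylate histones, or remodel nucleosomes. Of the 55 symbols, 54 had a row among the 22526 genes of the deposited table, and Ring1 was not analysed here. The study compared 3 groups of 3 libraries each. The first group was supplemented with nicotinamide mononucleotide (NMN), from which cells make the coenzyme NAD, the second was aged and the third was young. The mice were of the outbred ICR strain in all groups. The labels give neither the age in weeks of any group, nor whether the mice of the NMN group were aged, nor the dose of NMN. They also do not say how many oocytes or mice stand behind a library, so a p-value here tells of the spread between libraries alone, which may be technical. The question, from the title of the series, is what NMN does to the quality of oocytes from older mothers.

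DNA methylation in mammals is written de novo by DNMT3A and DNMT3B and copied after replication by DNMT1, which UHRF1 brings to newly replicated DNA. In the mouse, the growing oocyte sets up its methylome, maternal imprints included, with DNMT3A and its inactive partner DNMT3L. The mature oocyte then transcribes almost nothing and hands stored messenger RNA to the embryo. Among the stored products TET3 oxidises methylcytosine in the zygote and DPPA3 (also called Stella) protects the maternal genome from that oxidation. Histone marks act beside DNA methylation: H3K9 methylation, bound by the HP1 proteins, and H3K27 methylation, written by Polycomb complex PRC2, go with silent chromatin, and H3K4 methylation and acetylation with active chromatin.

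Levels are given as FPKM, read fragments per kilobase of transcript relative to the size of the library, so that genes of different length can be compared. Depth, estimated from the low values, was 16.28 to 19.25 M reads in each library (M, mega), and 3 reads on a transcript of 2 kb then amount to 0.0779 to 0.0921 FPKM, a floor that covers counting error only. All 12 oocyte markers on a fixed list were found, and their summed level was 12260 to 19490 FPKM. The 14 cumulus and granulosa markers found summed to 22.95 FPKM in aged replicate 2 and to 4.724 to 8.807 FPKM in the other 8 libraries. Ptx3, Inha, Fst and Tnfaip6 were listed at 0 in those 8 libraries and at 1.078 to 6.368 FPKM in aged replicate 2. Cyp19a1 and Kitl, which made up most of the sum in the other 8 libraries, were not raised there. Cyp19a1 had 3.03 FPKM in aged replicate 2, against 3.05 to 6.205 in the other 8, and Kitl 0.759, against 0.579 to 3.252. The 3 blood and immune markers found summed to at most 0.226 FPKM. The markers of sperm and early embryo summed to 36.07 to 211 FPKM, the highest again in aged replicate 2. Tcstv1 and Tcstv3 made up most of the latter sum, at 158.416 and 49.998 FPKM in aged replicate 2. Prm2 was also highest there, at 2.474 FPKM. Zscan4d was at its lowest, 0.054 FPKM, and Zscan4c and Zscan4f, at 0.027 and 0 FPKM, were not raised in aged replicate 2. That library also stood apart on the first principal component of all tested genes, at -56.9 against -22.8 to 28.6 in the other 8. The part of these markers in the results was not tested, and the main results are also given without aged replicate 2. Tested singly, 10 of 11 oocyte markers lay higher in aged than in young oocytes (median log2 change 0.43) and 1 of 11 lay higher in NMN than in aged oocytes (median -0.425). The 2 markers of the sperm and embryo list that were tested, Tcstv1 and Tcstv3, had medians of 1.22 and -1.001 in the same comparisons, with an unadjusted p under 0.05 for both in each. In bulk libraries fewer cells of a type and less RNA per cell cannot be told apart.

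The regulators differed widely in level. Averaged over the 9 libraries, 5 of the 54 were at 100 FPKM or more, 24 at 10 to under 100, 13 at 1 to under 10, and 12 under 1 FPKM. The 5 highest were Bmi1 at 174.1 FPKM, Dnmt1 at 167.8, Suz12 at 147.6, Dppa3 at 145.3 and Tet3 at 142.1. In rank of mean level, these 5 stood at percentile 98.7 to 99.0 of all genes in the table. Next came Uhrf1 at 92.3 FPKM, Eed at 66.1, Rnf2 at 50.1, Ezh2 at 44.9 and Kdm6a at 39.6. Within several families 1 paralog held nearly all of the message. Tet3 averaged 142.1 FPKM over the 9 libraries, while Tet1 lay between 0.242 and 1.34 FPKM and Tet2 between 0.0825 and 0.305. Uhrf1 likewise stood far above Uhrf2, which reached at most 0.336 FPKM in any library. Suv39h2 had 10.3 to 25.1 FPKM and Suv39h1 at most 0.163. Ehmt1 had 8.71 to 17.2 FPKM, against at most 0.224 for its partner gene Ehmt2. Among the class I deacetylases, Hdac2 was at 6.06 to 18.1 FPKM, Hdac1 at 0.402 to 1.38 and Hdac3 at 0.402 to 1.32. No regulator was under the floor in all 9 libraries, and 6 were under it in at least 1.

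**Figure D1:**
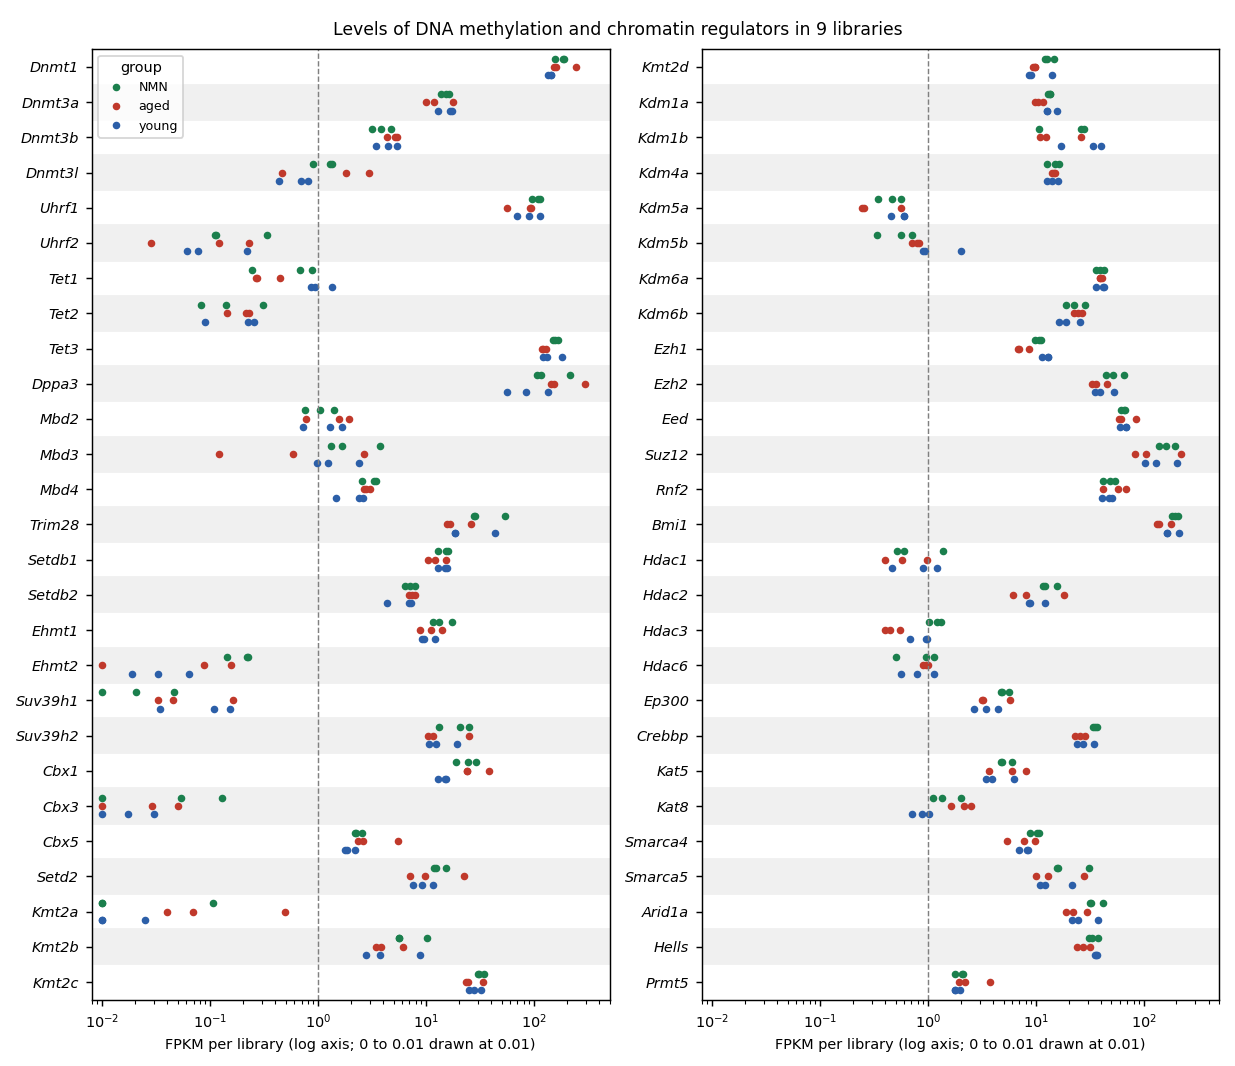
FPKM of the 54 regulators in each of the 9 libraries on a log axis, 1 row per gene and 1 point per library, coloured by group (NMN, aged, young). The dashed line marks 1 FPKM. The groups lie close together for most genes, while levels between genes run from Bmi1 at a mean of 174.1 FPKM down to genes under 1 FPKM such as Ehmt2 and Suv39h1.

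A test was run where 3 or more libraries reached 1 FPKM, as they did for 9168 genes and for 43 of the 54 regulators. Uhrf2, Tet1, Tet2, Ehmt2, Suv39h1, Cbx3, Kmt2a, Kdm5a, Kdm5b, Hdac1 and Hdac6 were not tested. Hdac3 passed only through the 3 NMN libraries, Dnmt3l through 2 NMN and 2 aged libraries, and Kat8 through 3 NMN, 3 aged and 1 young library. The tested differences of Hdac3, Dnmt3l and Kat8 are thus partly a matter of that filter. Changes are differences of log2(FPKM + 1) after scaling between libraries, with the standard error of the limma fit, and understate changes of low genes. Overlap of groups was judged on FPKM as deposited, without that scaling, and the counts below hold for that scale only. On scaled values some regulators differed. For example, Uhrf1 (NMN against aged), Mbd4 (aged against young), and Cbx5 and Smarca4 (NMN against young) then overlapped, and Ezh2 (NMN against aged) did not.

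Between aged and young oocytes no regulator passed the threshold of an adjusted p under 0.05, and those nearest to it were Cbx1, higher in aged oocytes, and Ezh1, lower. Of the 43 tested, 0 were called in limma, where 2.18% of all tested genes were (200 genes). At an unadjusted p under 0.05 there were 5, or 11.6%, against 18.3% of all tested genes. With library weights, an alternative fit, 4 were called: Cbx1, Dppa3 and Kat8 higher and Ezh1 lower in aged oocytes, with adjusted p of 0.0196, 0.0360, 0.0261 and 0.0261. That is 9.3% of the regulators, against 9.88% of all genes in the same fit. The groups did not overlap for 10 regulators (23.3%), against 23.8% of all tested genes. Aged libraries lay higher for 6 (12.6% of all tested genes): Cbx1, Kat8, Dppa3, Cbx5, Dnmt1 and Mbd4. They lay lower for 4 (11.2% of all tested genes): Ezh1, Kdm1a, Hells and Hdac3. The median log2 change of the 43 was -0.06, against -0.05 for all tested genes, and 19 of the 43 lay above 0 (44.2%, against 44.8%). Single regulators ran from -0.92 (Kdm1b) to 1.05 (Dppa3). Without aged replicate 2 the median was -0.135, 15 regulators lay above 0 and 8 had an unadjusted p under 0.05 (18.6%, against 16.8% of all genes).

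NMN oocytes lay above aged ones for most regulators, again with no call. Of the 43, 0 were called in limma, against 0.218% of all tested genes (20 genes), and with library weights 0 as well. At an unadjusted p under 0.05 there were 7 (16.3%, against 11.3% of all tested genes in either direction). All 7 were higher in NMN oocytes (16.3%, with 6.11% of all tested genes higher): Hdac3, Arid1a, Crebbp, Ezh1, Trim28, Bmi1 and Ezh2. The groups did not overlap for 10 regulators (23.3%), against 15.6% of all tested genes, and in all 10 NMN libraries were the higher ones (9.09% of all tested genes, with 6.51% lower). These were Hdac3, Arid1a, Crebbp, Ezh1, Trim28, Bmi1, Kmt2d, Uhrf1, Tet3 and Kdm1a. The median log2 change was 0.30 for the regulators and 0.025 for all tested genes, and 28 of the 43 lay above 0 (65.1%, against 53.2%). Hdac3 was tested only through its NMN libraries, and without it 6 of 42 had an unadjusted p under 0.05 (14.3%) and 9 did not overlap (21.4%), a count added after the values were seen. The number at an unadjusted p under 0.05 depended on single libraries. It was 1 without NMN replicate 1 (2.38%, against 9.94% of all genes) and 2 without NMN replicate 2 (4.76%, against 8.26%). It was 4 without NMN replicate 3 (9.52%, against 9.68%). It was 2 without aged replicate 1 (4.65%, against 10.5%) and 4 without aged replicate 3 (9.3%, against 11%). Without aged replicate 2 it was 12 (27.9%, against 15.2%), and with the replicate block 2 (4.65%, against 5.84%). The median was 0.193 to 0.301 with 1 library left out, and 0.27 without aged replicate 2. The oocyte markers had a median log2 change of -0.425 in the same comparison, opposite in sign to that of the regulators, and their part in the result was not tested. The regulators tested have longer transcripts than other genes, with a median longest transcript of 4327 nt against 3074 nt, and with a trend on transcript length taken out of each library the median was 0.18.

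NMN oocytes also lay above young ones for 31 of the 43 regulators (72.1%, against 49.8% of all tested genes). None was called in limma, against 0.0764% of all tested genes (7 genes, or 23 genes with the replicate number as a block), and with library weights the count was 0. At an unadjusted p under 0.05 there was 1, Cbx1, against 8.12% of all tested genes. With the replicate block 11 regulators had an unadjusted p under 0.05 (25.6%, against 20% of all genes), and the smallest adjusted p was 0.0746, for Dppa3. The values given below for single genes are from the fit without the block. With it the adjusted p was 0.082 for Cbx1, 0.212 for Dnmt1 and 0.358 for Ezh1, against 0.418, 0.738 and 0.749 without it. The groups did not overlap for 10 (23.3%, against 16.6%). NMN libraries were the higher ones for 9 (20.9%, against 9.58%): Cbx1, Kat8, Ep300, Dnmt1, Setd2, Dnmt3l, Hdac3, Smarca4 and Cbx5. They were the lower ones for 1, Ezh1 (2.33%, against 6.99%). Hdac3 was tested only through its NMN libraries. Without it 9 of 42 did not overlap (21.4%), NMN libraries being higher for 8, a count added after the values were seen. The median log2 change of the 43 was 0.18, against -0.001 for all tested genes. The comparison with young libraries shares its NMN libraries with the comparison above, and the aged libraries are likewise shared between the other comparisons, so their changes are not independent of each other.

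**Figure D2:**
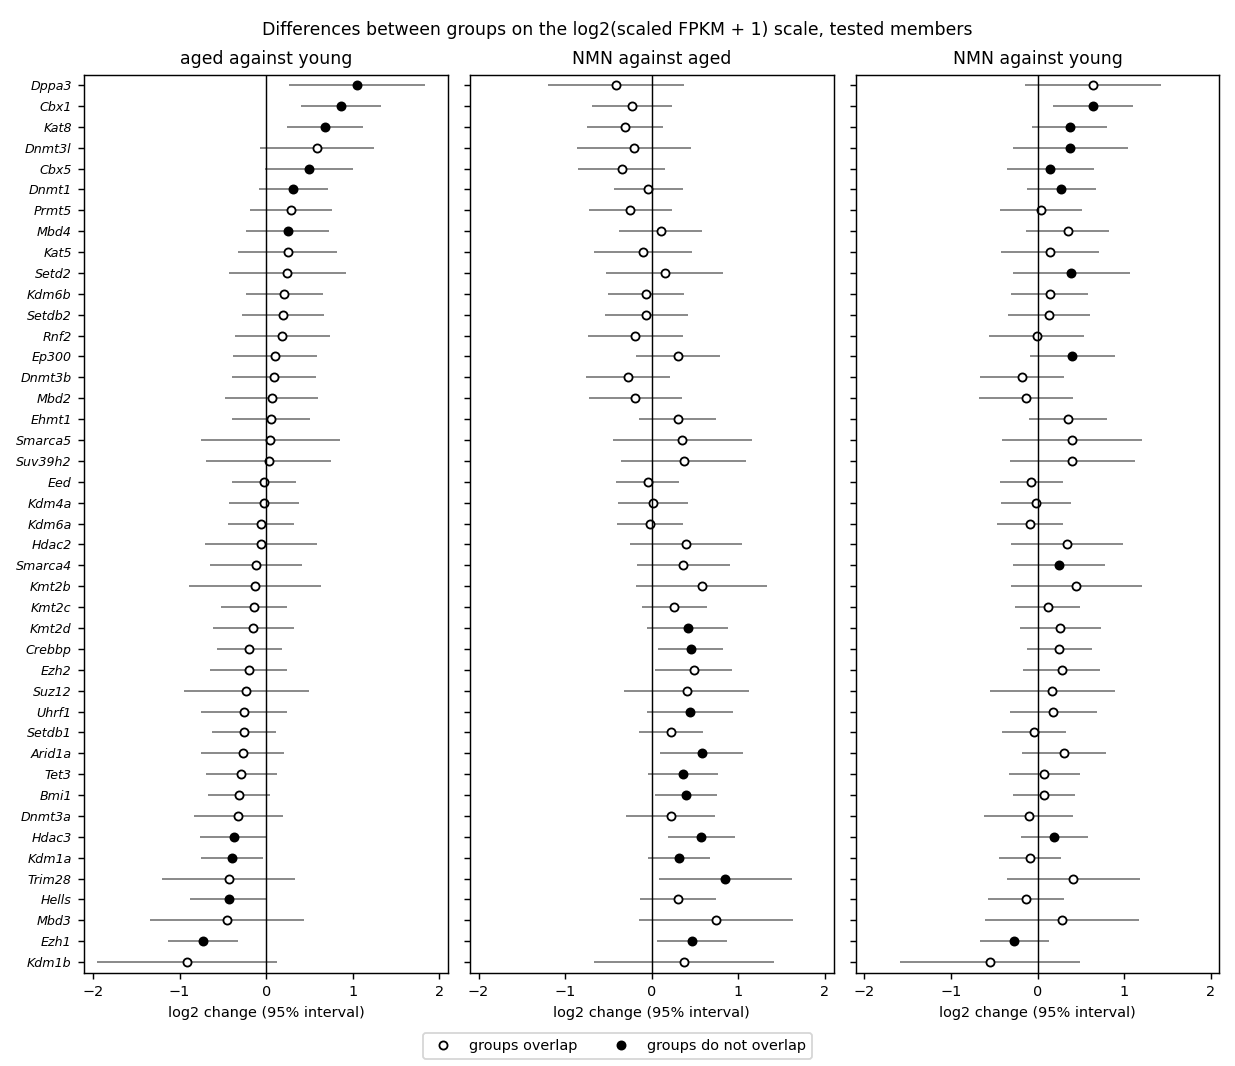
Log2 change with its 95% interval for the 43 tested regulators in 3 panels (aged against young at the left, NMN against aged in the middle, NMN against young at the right), in the order of the change with age. Filled points mark regulators whose groups do not overlap in FPKM as deposited, 10 in each comparison, while the changes are of scaled values. All 10 filled points of NMN against aged lie right of 0.

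Dnmt1, the maintenance methyltransferase, had 188, 185 and 157 FPKM in NMN libraries, 154, 246 and 160.0 in aged and 143, 144 and 133 in young libraries. Every NMN and every aged library lay above the highest young one. The log2 change was 0.32 ± 0.18 for aged against young (95% interval -0.09 to 0.72, adjusted p = 0.388) and 0.28 ± 0.18 for NMN against young (adjusted p = 0.738). Without aged replicate 2, the highest library, the change with age was 0.17 (adjusted p = 0.627). Mouse oocytes are known to start Dnmt1 from an oocyte-specific first exon, and the deposited values are per gene, so they do not tell one start from another. RefSeq (GRCm38.p6) lists 3 windows of 250 bases before to 50 after a Dnmt1 start, all on the minus strand of chromosome 9. The outermost are shown because they differ in CpG content, with CG in capitals: the upstream one, chr9:20959839-20960138, has 2 CpG (observed over expected 0.10), and the downstream one, chr9:20952574-20952873, has 33 (0.91).
Dnmt1 upstream start: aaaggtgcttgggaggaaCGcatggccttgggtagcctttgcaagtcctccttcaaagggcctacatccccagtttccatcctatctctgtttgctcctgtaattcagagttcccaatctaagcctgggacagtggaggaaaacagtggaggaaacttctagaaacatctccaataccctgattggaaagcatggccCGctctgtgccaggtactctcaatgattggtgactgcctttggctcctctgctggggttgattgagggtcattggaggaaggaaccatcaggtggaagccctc
Dnmt1 downstream start: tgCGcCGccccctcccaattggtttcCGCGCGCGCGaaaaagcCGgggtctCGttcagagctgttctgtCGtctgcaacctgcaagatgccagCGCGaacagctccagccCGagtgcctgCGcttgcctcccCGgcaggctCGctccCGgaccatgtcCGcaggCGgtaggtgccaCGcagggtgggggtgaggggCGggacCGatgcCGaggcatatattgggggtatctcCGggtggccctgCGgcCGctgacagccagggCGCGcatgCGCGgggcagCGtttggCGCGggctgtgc
Both windows hold CCAAT (5 matches upstream and 3 downstream, both strands searched). The GC box GGGCGG has 2 matches in the downstream window and none in the upstream one.

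Of all 55 symbols, 48 had RefSeq windows, 62 in all. The regulators' windows were mostly rich in CpG, with a median of 28 CpG against 7 in all 32851 windows. An observed over expected ratio above 0.6 was found in 51 of the 62 (82.3%), against 35.8% of all windows. GGGCGG occurred in 80.6% of them (35.7% of all), CCAAT in 33.9% (37.4%) and TATAAA in 1.6% (13.6%), on either strand. These are matches of letters in a window and say nothing of a factor's binding. The low end held Dnmt1's upstream window, all 3 windows of Dnmt3l, with 3, 4 and 6 CpG, and 1 window of Kat8, with 5.

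Uhrf1, whose protein reads hemimethylated DNA, had 113, 109.6 and 94.98 FPKM in NMN libraries, against 55.7, 92.8 and 91.7 in aged and 113, 69.9 and 90.4 in young libraries. In FPKM as deposited, all 3 NMN libraries lay above all aged ones and reached into or just above the young range. After scaling, NMN replicate 3 lay just under aged replicate 3 (6.543 against 6.549 on the log2 scale). The log2 change of Uhrf1 for NMN against aged was 0.44 ± 0.22 (95% interval -0.06 to 0.94, adjusted p = 0.496). Dnmt3a, the de novo enzyme of the oocyte, averaged 15.02 ± 1.34 FPKM in NMN, 13.2 ± 4.06 in aged and 15.7 ± 2.39 in young libraries (SD, n = 3 each). Its groups overlapped in every comparison. Dnmt3b, the other de novo enzyme, was lower, at 3.91 ± 0.7998, 4.94 ± 0.566 and 4.404 ± 0.9501 FPKM in NMN, aged and young libraries, again with overlapping groups. Dnmt3l, the partner without catalytic activity, had only 1.33, 0.895 and 1.295 FPKM in NMN libraries, 0.464, 2.96 and 1.81 in aged and 0.801, 0.693 and 0.435 in young libraries. Each NMN library was above each young one, but the log2 change was 0.38 ± 0.297 with an adjusted p of 0.782. The aged libraries spread from inside the young range to the highest value of all, in aged replicate 2. None of these 5 methylation genes had an unadjusted p under 0.05 in any comparison, the smallest being 0.0751 for Dnmt3l in aged against young oocytes (log2 change 0.59 ± 0.297, or 0.31 without aged replicate 2).

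Dppa3, whose protein shields maternal DNA methylation after fertilisation, had the largest positive change with age. It had 217, 108 and 116 FPKM in NMN libraries, 152, 297 and 145 in aged and 134, 83.3 and 56.5 in young libraries. The aged libraries all lay above the young ones, while the NMN libraries overlapped both. For aged against young the log2 change was 1.05 ± 0.35 (95% interval 0.27 to 1.83, adjusted p = 0.158). Without aged replicate 2 it was 0.79 (adjusted p = 0.284). A processed copy, Dppa3-ps, was listed at 0 to 1.498 FPKM, and a split of reads between the copies was not tested. Tet3, the dioxygenase of the zygote, had 166, 149 and 158 FPKM in NMN libraries, 129.7, 120.0 and 119.5 in aged and 183, 122 and 132 in young libraries. The NMN libraries lay above all aged ones and within the young range. Its log2 change for NMN against aged was 0.36 ± 0.19 (95% interval -0.05 to 0.77, adjusted p = 0.499). Tet1, too low to be tested, had 0.675, 0.242 and 0.875 FPKM in NMN libraries, 0.445, 0.265 and 0.271 in aged and 0.933, 1.34 and 0.865 in young libraries. All 3 aged libraries were below all young ones for Tet1.

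Of the genes for methyl-DNA binding proteins, Mbd4, a thymine glycosylase, had 2.55, 3.304 and 3.41 FPKM in NMN libraries, 2.99, 2.65 and 2.77 in aged and 1.45, 2.396 and 2.59 in young libraries. The aged libraries lay just above the young ones and NMN libraries overlapped both, with a log2 change of 0.25 ± 0.22 with age (adjusted p = 0.579). Mbd3, a subunit of the NuRD deacetylase complex, varied most, at 3.71, 1.32 and 1.67 FPKM in NMN, 0.581, 2.63 and 0.121 in aged and 2.38, 0.984 and 1.23 in young libraries. Its standard error of 0.40 on the log2 scale was the largest of the list after that of Kdm1b. Mbd2 averaged 1.07 ± 0.328, 1.41 ± 0.582 and 1.23 ± 0.473 FPKM in NMN, aged and young libraries, with overlapping groups.

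Among the genes of H3K9 methylation and heterochromatin, Cbx1 (ENSMUSG00000018666), which encodes HP1 beta, had the smallest p of all regulators. It stood at 28.7, 24.4 and 18.9 FPKM in NMN libraries and 23.9, 38.2 and 24.1 in aged libraries, against 15.1, 15.1 and 12.8 in young libraries. Young libraries were tight and low, and every NMN and aged library lay above them. The log2 change was 0.87 ± 0.21 for aged against young (95% interval 0.41 to 1.33, adjusted p = 0.0673), or 0.72 (adjusted p = 0.107) without aged replicate 2. For NMN against young it was 0.64 ± 0.21 (95% interval 0.18 to 1.098, adjusted p = 0.418), and for NMN against aged -0.23 ± 0.21 (adjusted p = 0.717). Cbx5, which encodes HP1 alpha, had 2.21, 2.53 and 2.25 FPKM in NMN libraries, 2.59, 5.49 and 2.34 in aged and 1.86, 2.17 and 1.77 in young libraries. Here too young libraries were the lowest, and aged replicate 2 stood far above the rest. The log2 change of Cbx5 with age was 0.49 ± 0.23 (adjusted p = 0.281), and 0.25 without that library (adjusted p = 0.543). Cbx3, which encodes HP1 gamma, was at most 0.129 FPKM. Its value is uncertain, since Cbx3 has 8 annotated copies elsewhere in the genome and 1 of the 2 that are in the table, Cbx3-ps6, was listed at 0 to 29.7 FPKM.

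The promoter window of Cbx1, chr11:96788885-96789184 on the plus strand of GRCm38.p6, holds 22 CpG (observed over expected 1.06) and 1 GGGCGG. That of Ezh1, chr11:101226414-101226713 on the minus strand, holds 23 (0.88) and no GGGCGG. They are shown, CG in capitals, because these genes had the smallest p in each direction between aged and young oocytes.
Cbx1: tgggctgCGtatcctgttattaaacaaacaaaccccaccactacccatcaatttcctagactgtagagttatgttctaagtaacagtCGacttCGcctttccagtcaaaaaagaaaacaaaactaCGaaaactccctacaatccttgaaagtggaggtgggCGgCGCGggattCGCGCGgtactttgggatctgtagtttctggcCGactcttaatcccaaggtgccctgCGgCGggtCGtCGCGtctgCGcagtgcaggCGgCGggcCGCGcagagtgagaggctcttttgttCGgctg
Ezh1: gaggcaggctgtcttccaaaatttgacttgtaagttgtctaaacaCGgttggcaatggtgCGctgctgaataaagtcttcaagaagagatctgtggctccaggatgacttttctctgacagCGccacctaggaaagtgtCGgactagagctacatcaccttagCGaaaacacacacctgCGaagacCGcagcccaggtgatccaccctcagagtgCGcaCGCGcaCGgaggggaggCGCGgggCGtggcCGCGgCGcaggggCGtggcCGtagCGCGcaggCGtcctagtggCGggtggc
Neither window holds CCAAT or TATAAA.

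Trim28, the co-repressor that KRAB zinc finger proteins bring to DNA, had 53.5, 27.5 and 28.3 FPKM in NMN libraries, 16.6, 26.3 and 15.5 in aged and 43.9, 18.4 and 18.7 in young libraries. The NMN libraries lay above all aged ones, and replicate 1 of the NMN and of the young group stood far above its own group. For NMN against aged the log2 change was 0.85 ± 0.34 (95% interval 0.09 to 1.61, adjusted p = 0.4). Setdb1, the H3K9 methyltransferase that TRIM28 recruits, averaged 14.7 ± 1.48, 12.6 ± 2.51 and 14.5 ± 1.39 FPKM in NMN, aged and young libraries. Its groups overlapped throughout. Ehmt1, which forms the H3K9 methyltransferase of euchromatin with EHMT2, had 17.2, 13.1 and 11.5 FPKM in NMN, 8.71, 14.03 and 10.99 in aged and 12.1, 9.08 and 9.48 in young libraries. The smallest p of Ehmt1 was in NMN against young oocytes, with a log2 change of 0.35 ± 0.202 (adjusted p = 0.697). Ehmt2 was barely detected, at 0.217, 0.224 and 0.143 FPKM in NMN, 0, 0.157 and 0.0875 in aged and 0.0327, 0.0629 and 0.0189 in young libraries, and was not tested. All 3 NMN libraries of Ehmt2 lay above the young ones, at levels near or under the 2 kb floor. Its longest transcript is 4026 nt. Setdb2 and Suv39h2, further H3K9 methyltransferases, had overlapping groups in all comparisons.

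The writers of H3K4 and H3K36 methylation gave no unadjusted p under 0.05 in any comparison. Kmt2d, an enhancer methyltransferase, had 12.6, 14.8 and 12.01 FPKM in NMN libraries, 9.84, 9.69 and 9.36 in aged and 14.1, 8.54 and 9.07 in young libraries. All NMN libraries lay above all aged ones, which were nearly equal. The log2 change of Kmt2d was 0.41 ± 0.21 (adjusted p = 0.496). Setd2, the H3K36 methyltransferase, had 15.2, 11.8 and 12.3 FPKM in NMN libraries, 7.07, 22.5 and 9.81 in aged and 11.6, 9.19 and 7.55 in young libraries. NMN libraries were just above the young ones (0.39 ± 0.304 on the log2 scale, adjusted p = 0.78), and aged libraries held both the lowest and the highest value. Kmt2b, the main H3K4 methyltransferase of the mouse oocyte, averaged 7.17 ± 2.66, 4.44 ± 1.42 and 5.11 ± 3.24 FPKM in NMN, aged and young libraries. Kmt2c averaged 31.96 ± 2.07, 27.01 ± 5.81 and 28.3 ± 3.83 FPKM in NMN, aged and young libraries, and Kmt2a was at most 0.494 FPKM in any library. The aged libraries of Kmt2a, at 0.0693, 0.494 and 0.0396 FPKM, lay above the young ones, at 0, 0.0069 and 0.0249. Most of these values are under the 2 kb floor, and Kmt2a was not tested. Its longest transcript is 16470 nt, so 3 reads on it amount to less FPKM than that floor.

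Of the histone demethylases, Kdm1a (LSD1, which acts on H3K4) lay lower in aged oocytes than in both other groups. It had 13.6, 13.6 and 12.8 FPKM in NMN libraries, 9.81, 11.6 and 10.5 in aged and 15.8, 12.7 and 12.7 in young libraries. The aged libraries overlapped neither group. The log2 change was -0.395 ± 0.16 for aged against young (95% interval -0.75 to -0.04, adjusted p = 0.229) and 0.31 ± 0.16 for NMN against aged (adjusted p = 0.503). Kdm1b, which the growing mouse oocyte needs for maternal imprints, had the most negative change with age and also the largest standard error. Its levels were 10.6, 27.98 and 26.1 FPKM in NMN, 12.2, 10.9 and 26.2 in aged and 17.1, 33.6 and 39.6 in young libraries. In each group some libraries were far lower than others, and the groups overlapped. The log2 change with age was -0.92 ± 0.47 (95% interval -1.96 to 0.12, adjusted p = 0.327), or -0.63 without aged replicate 2 (adjusted p = 0.562). Kdm5b, an H3K4 demethylase too low to be tested, had 0.564, 0.339 and 0.709 FPKM in NMN, 0.823, 0.705 and 0.794 in aged and 0.903, 2.004 and 0.932 in young libraries. All NMN and all aged libraries of Kdm5b were below all young ones. Kdm6a, Kdm6b and Kdm4a had overlapping groups in every comparison. The steadiest was Kdm6a, an H3K27 demethylase, at 39.03 ± 3.09, 39.8 ± 1.101 and 39.9 ± 3.54 FPKM in NMN, aged and young libraries.

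Polycomb genes held the regulator with the smallest p among those lower in aged than in young oocytes. Ezh1 (ENSMUSG00000006920), an H3K27 methyltransferase, had 9.82, 10.8 and 11.1 FPKM in NMN libraries, 6.97, 6.82 and 8.601 in aged and 12.9, 11.5 and 12.96 in young libraries. None of the 3 groups overlapped with another, and NMN libraries lay between aged and young ones. The log2 change was -0.73 ± 0.18 for aged against young (95% interval -1.13 to -0.33, adjusted p = 0.0727), and -0.61 without aged replicate 2 (adjusted p = 0.115). It was 0.46 ± 0.18 for NMN against aged (95% interval 0.06 to 0.86, adjusted p = 0.392) and -0.27 ± 0.18 for NMN against young (adjusted p = 0.749). Ezh2, its more abundant paralog, had 65.7, 51.2 and 44.5 FPKM in NMN libraries, 33.3, 45.5 and 36.1 in aged and 53.2, 35.2 and 39.4 in young libraries. Its NMN and aged groups overlapped by 1 library in FPKM as deposited, and did not overlap after scaling. The log2 change of Ezh2 for NMN against aged was 0.48 ± 0.201 (adjusted p = 0.412). Eed, the PRC2 subunit that binds the methyl mark, averaged 64.6 ± 2.601, 68.1 ± 14.5 and 65.4 ± 4.68 FPKM in NMN, aged and young libraries. Suz12, the scaffold of PRC2, ranged widely within groups, at 193, 159 and 139 FPKM in NMN, 104, 219 and 82.3 in aged and 202, 102 and 129 in young libraries.

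Of the PRC1 genes, Bmi1, the partner of the ligase RNF2, had 207, 182 and 194 FPKM in NMN libraries, 139, 177 and 133 in aged and 209.8, 162 and 163 in young libraries. NMN libraries lay above all aged ones and inside the young range. For NMN against aged the log2 change was 0.39 ± 0.16 (95% interval 0.03 to 0.75, adjusted p = 0.409). Rnf2, the ubiquitin ligase of the complex, averaged 47.95 ± 6.52, 56.02 ± 13.4 and 46.2 ± 4.902 FPKM in NMN, aged and young libraries, with overlapping groups.

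**Figure D3:**
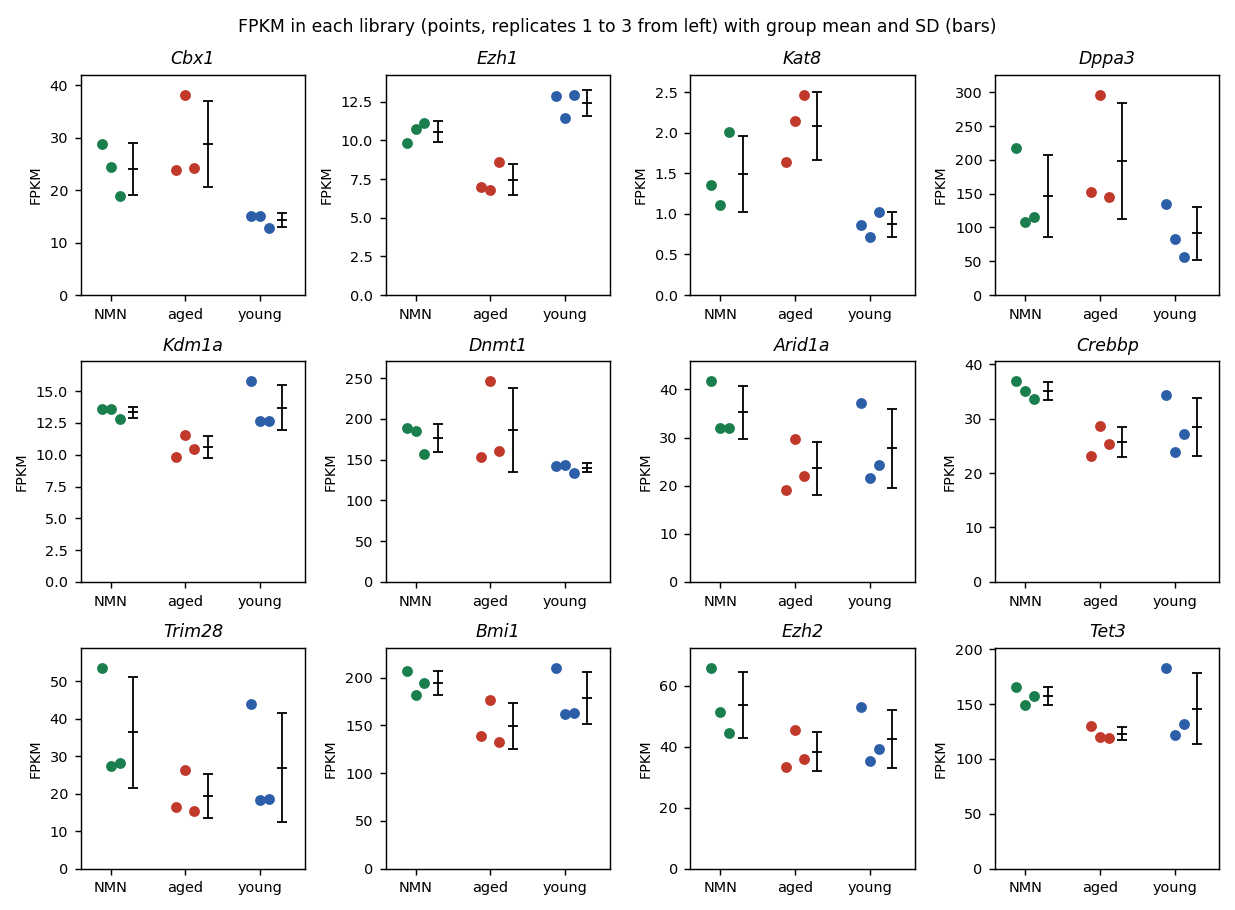
FPKM of 12 regulators in each library (points), with the group mean and SD beside them, for NMN, aged and young oocytes; every axis starts at 0. Cbx1, Dppa3 and Dnmt1 have their lowest mean in young oocytes, Ezh1 and Kdm1a in aged ones, and Arid1a, Crebbp, Trim28, Bmi1 and Tet3 lie higher in every NMN library than in any aged one.

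Among acetyltransferases and deacetylases, Kat8 (MOF, which acetylates H4K16) had 1.36, 1.11 and 2.01 FPKM in NMN libraries and 1.64, 2.15 and 2.47 in aged libraries, against 0.869, 0.716 and 1.02 in young libraries. Young libraries were lower than all others. The log2 change was 0.68 ± 0.196 for aged against young (95% interval 0.25 to 1.12, adjusted p = 0.111), or 0.71 without aged replicate 2 (adjusted p = 0.133), and 0.37 ± 0.196 for NMN against young (adjusted p = 0.67). Crebbp (CBP), a general co-activator, had 36.8, 35.1 and 33.5 FPKM in NMN libraries, 23.2, 28.7 and 25.3 in aged and 34.4, 23.96 and 27.2 in young libraries. All NMN libraries lay above all aged ones, with a log2 change of 0.45 ± 0.17 (95% interval 0.07 to 0.82, adjusted p = 0.374). Its paralog Ep300 had 4.77, 5.59 and 4.85 FPKM in NMN libraries, 3.19, 5.79 and 3.23 in aged and 4.46, 2.64 and 3.41 in young libraries. NMN libraries were above the young ones (0.403 ± 0.22 on the log2 scale, adjusted p = 0.682), while aged replicate 2 exceeded them all.

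Hdac3 had the smallest p in NMN against aged oocytes, at a low level. It had 1.196, 1.02 and 1.32 FPKM in NMN libraries, 0.402, 0.549 and 0.447 in aged and 0.951, 0.686 and 0.968 in young libraries. No pair of groups overlapped, aged libraries being lowest and NMN libraries highest. The log2 change was 0.57 ± 0.17 for NMN against aged (95% interval 0.19 to 0.96, adjusted p = 0.253). Since Hdac3 was kept for the test by its NMN libraries alone, its difference is not independent of the filter. Hdac2, the most abundant of the class I deacetylases listed, had 15.8, 11.5 and 12.1 FPKM in NMN libraries, 6.06, 18.1 and 7.997 in aged and 12.0, 8.71 and 8.63 in young libraries. Aged replicate 2 was the highest library and the other aged ones the lowest, so the change for NMN against aged was 0.399 ± 0.29 (adjusted p = 0.634) with that library and 0.75 without it (adjusted p = 0.173). Hdac1 stood at 0.832 ± 0.478, 0.653 ± 0.297 and 0.857 ± 0.375 FPKM in NMN, aged and young libraries and was not tested. Kat5 had overlapping groups, and Hdac6 was at most 1.13 FPKM in any library.

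Of the remodellers, Arid1a, a subunit of the BAF (SWI/SNF) complex, had 41.7, 32.1 and 31.9 FPKM in NMN libraries, 19.1, 29.7 and 22.1 in aged and 37.2, 21.7 and 24.4 in young libraries. All NMN libraries were above all aged ones. The log2 change for NMN against aged was 0.58 ± 0.22 (95% interval 0.095 to 1.06, adjusted p = 0.37). Smarca4 (BRG1), the ATPase of the same complex, had 10.1, 10.6 and 8.88 FPKM in NMN libraries, 7.71, 5.44 and 9.698 in aged and 6.91, 8.34 and 8.26 in young libraries. NMN libraries exceeded young ones by little, with a log2 change of 0.25 ± 0.24 (adjusted p = 0.8). Hells (LSH), a remodeller needed for normal DNA methylation in the mouse, had 31.3, 37.8 and 32.9 FPKM in NMN libraries, 31.8, 23.98 and 27.1 in aged and 35.9, 35.3 and 36.3 in young libraries. Young libraries of Hells were nearly equal, and all aged ones lay below them. The log2 change with age was -0.43 ± 0.199 (95% interval -0.88 to 0.01, adjusted p = 0.28), or -0.27 (adjusted p = 0.490) without aged replicate 2, the lowest library. Smarca5, an ISWI ATPase, and the arginine methyltransferase gene Prmt5 had overlapping groups in all comparisons.

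In the aged and in the young group 1 library was the highest for many regulators at once. Of the 43 tested regulators, young replicate 1 was the highest of its group in 24 (55.8%, against 36.7% of all tested genes). Aged replicate 2 was the highest of its group in 24 (55.8%, against 37.6%), while in the NMN group replicates 1 and 2 were nearly even, with 19 (44.2%, against 36.5%) and 18 (41.9%, against 37%). The summed FPKM of the 54 regulators was 1799, 1547 and 1486 in the NMN libraries, 1264, 1823 and 1284 in the aged libraries, and 1640, 1232 and 1279 in the young libraries. In this sum NMN replicate 1, aged replicate 2 and young replicate 1 were the highest of their groups. Trim28, Suz12, Smarca5, Kmt2b, Suv39h2 and Arid1a were among the genes highest in these 3 libraries within their groups, and Kdm1b was lowest in them; these genes were picked after their values were seen. A batch that these libraries might share is not given in the labels, and its part in the results was not tested. Spread within groups was no larger for the regulators than for other genes. The median SD on the log2 scale was 0.189 against 0.255 for all tested genes in NMN libraries, 0.253 against 0.321 in aged and 0.221 against 0.224 in young libraries.

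**Figure D4:**
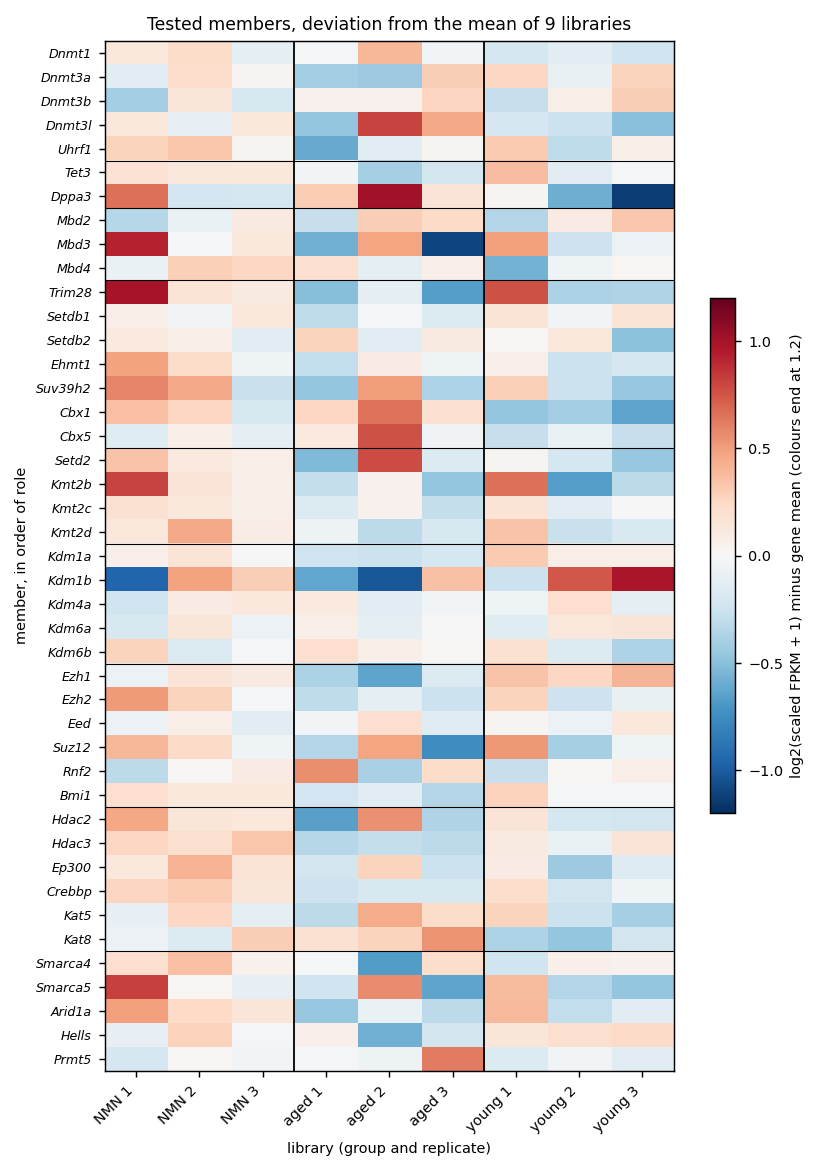
Deviation of each tested regulator from its mean over 9 libraries on the log2 scale, 1 column per library (NMN, aged, young) and 1 row per regulator in order of role; red is above and blue below the mean. Aged replicate 2 and young replicate 1 are each the highest of their group for 24 of the 43 regulators, and NMN replicates 1 and 2 for 19 and 18.

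Further genes of the same pathways were read from 9 lists outside the 55, with 233 genes found and 174 tested. In aged against young oocytes 1 was called (0.575%, against 2.18% of all tested genes), Atrx, a remodeller of heterochromatin that partners with DAXX. Atrx had 51.7, 32.2 and 38.8 FPKM in NMN libraries and 47.3, 80.3 and 56.4 in aged libraries, against 23.97, 31.1 and 30.2 in young libraries. Its aged libraries all lay above its young ones, and it rose by 0.99 ± 0.22 on the log2 scale (adjusted p = 0.0455). That call was lost when any 1 library other than NMN replicate 1 was left out, and without aged replicate 2 the change was 0.86 (adjusted p = 0.0749). At an unadjusted p under 0.05, 7 of the 174 were higher and 12 lower in aged oocytes (10.9% in all, against 18.3% of all tested genes), with a median log2 change of -0.04.

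Of the 12 tested genes of the methyl donor cycle, 0 were called in limma in aged against young oocytes, and 3 were lower and 0 higher at an unadjusted p under 0.05, a rule that 18.3% of all tested genes met. Mtr, the methionine synthase gene, had 5.90, 5.25 and 9.13 FPKM in NMN libraries, 6.04, 8.92 and 6.11 in aged libraries and 11.6, 12.3 and 9.60 in young libraries. Every NMN and aged library was below every young one for Mtr, with a log2 change of -0.67 ± 0.22 for aged against young (adjusted p = 0.145). Gadd45b, linked to active demethylation, had 3.52, 2.56 and 2.59 FPKM in NMN libraries and 3.56, 2.28 and 2.27 in aged libraries, against 0.414, 0.941 and 1.11 in young libraries. Its log2 change was 0.99 ± 0.24 for aged against young (adjusted p = 0.0694) and 1.07 ± 0.24 for NMN against young (adjusted p = 0.227). Ruvbl2, an ATPase of the INO80 and TIP60 complexes, had 39.8, 44.5 and 34.9 FPKM in aged libraries, against 21.5, 22.0 and 10.8 in young libraries (log2 change 1.08 ± 0.25, adjusted p = 0.0527).

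In NMN against aged oocytes 0 of the 174 were called in limma, 11 being higher and 5 lower at an unadjusted p under 0.05 (9.2% in all, against 11.3% of all tested genes), and the median log2 change was 0.12. Wdr5, a core subunit of H3K4 methyltransferase complexes, had 66.7, 68.7 and 67.4 FPKM in NMN libraries, 35.5, 44.1 and 50.7 in aged libraries and 64.9, 58.2 and 66.1 in young libraries. Aged libraries of Wdr5 were the lowest of the 9, and the log2 change was 0.65 ± 0.17 for NMN against aged (adjusted p = 0.183) and -0.61 ± 0.17 for aged against young (adjusted p = 0.109). Kdm7a, a demethylase of H3K9 and H3K27, had 31.0, 34.5 and 28.2 FPKM in NMN libraries, 19.96, 24.6 and 17.8 in aged libraries and 33.8, 27.1 and 35.3 in young libraries. Again the aged libraries were lowest, with a log2 change of 0.58 ± 0.18 for NMN against aged (adjusted p = 0.283). Jarid2, a PRC2 cofactor, had 17.9, 12.7 and 11.97 FPKM in NMN libraries, against 8.26, 8.47 and 7.75 in aged libraries (log2 change 0.71 ± 0.19, adjusted p = 0.183). Ruvbl2 went the other way, with 24.5, 22.6 and 22.6 FPKM in NMN libraries, against 39.8, 44.5 and 34.9 in aged libraries (log2 change -0.735 ± 0.245, adjusted p = 0.306). Between NMN and young oocytes 0 of the 174 were called, 4 being higher and 2 lower at an unadjusted p under 0.05 (3.45% in all, against 8.12% of all tested genes), with a median of 0.10.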

How the data were processed

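Smart-seq2, which primes full-length cDNA with oligo(dT), was used for the libraries, which were sequenced by the DNBseq route, per the labels' protocols. The authors deposited 1 table for 9 libraries whose name speaks of raw counts, but whose values are FPKM: they are fractional and sum to 300369 to 329359 in a library. The submitters' processing notes name Bowtie2 2.2.5, RSEM and the mouse build mm9; the annotation was not given in the sources used here. Groups came from the sample titles and columns from the sample descriptions, and 0 columns belonged to other samples. GENCODE M21 symbols matched 22487 of 22526 identifiers (99.83%). Promoter windows came from RefSeq on GRCm38.p6, which is not the build of the deposited values, so its coordinates are its own.

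Depth was read from the low values: for 2659 genes with 1 transcript of over 1500 nt, 96.6 to 97.7% of the values below 20 reads were whole multiples of 1 read within 0.02 reads. RSEM shares reads between transcripts, so counts were not recovered and no count model was used. FPKM were divided by trimmed-mean factors (30% by ratio, 5% by level) and a gene was kept where 3 or more libraries reached 1 FPKM. All 9 libraries entered 1 fit of group means on log2(FPKM + 1) (limma 3.58.1, R 4.3.3), the variances being moderated robustly along a trend on level. Benjamini-Hochberg adjustment ran over all 9168 genes. The steps were tested on simulated data.

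The regulators and the gene lists were chosen with earlier results of these data known. Values per library, or for some the mean and SD or the highest value, are given for chosen regulators. These are the 6 with the smallest p in each comparison, 20 of known maternal or textbook role, and those whose groups did not overlap. Others were added outside these rules, among them Mbd3 and Suz12, which vary within groups, and Mbd2, Kmt2b, Kmt2c, Rnf2 and Kdm6a. From the other lists the genes named were called, or had the smallest p of their list. The labels tie replicate numbers to no animal or day. Deviations of same-numbered libraries from their group means correlated at 0.497, 0.119 and 0.142 for NMN and young libraries, all over 0.1. The main fit does not pair them, and the fit with a replicate block, which does, is given where it moves a count. The correlations were not all over 0.1 for aged and young libraries (-0.339, -0.267 and 0.314) or for NMN and aged libraries (-0.372, -0.359 and 0.199). Changes, standard errors, intervals and adjusted p of single genes are from the fit without the block unless stated.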

Additional observations from a re-analysis of the deposited data

How the results depend on the processing

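The regulators called stayed at 0 in every comparison under all 19 alternatives except library weights, which called 4 in aged against young oocytes (Cbx1, Dppa3, Kat8 and Ezh1). The count of called genes moved far more. Library weights gave 906 genes for aged against young, 163 in NMN against aged and 73 in NMN against young oocytes. With no filter on low values the counts were 31, 9 and 0, and with a minimum of 5 FPKM they were 7 in NMN against aged and 1 in NMN against young oocytes. FPKM as deposited gave 3 genes for NMN against young. A fit of only the 2 groups compared gave 120 genes between aged and young and 6 between NMN and aged oocytes. The replicate block gave 2, 0 and 23 genes in the 3 comparisons. Leaving out 1 library at a time gave 20 to 210 genes for aged against young, 5 to 26 in NMN against aged and 1 to 14 in NMN against young oocytes. The cause of these shifts was not tested, beyond the fewer libraries and the other genes tested that the settings imply.

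The regulators' median log2 change was -0.135 to -0.011, 0.193 to 0.301 and 0.123 to 0.266 in the 3 comparisons with 1 library left out. For NMN against aged it was 0.151 with no filter and 0.184 with the length trend removed, each by more than the SD between libraries of 0.114 from the main 0.298. Leaving out regulators kept by the libraries of 1 group alone, chosen after seeing the data, gave medians of -0.044, 0.278 and 0.177 and 0 called. Changes of single regulators were followed for the 27 tested ones named by rule, and small ones turned in sign. With FPKM as deposited Eed was at 0.039 in aged against young and Setdb1 at 0.015 in NMN against young oocytes. With library weights Smarca4 was at 0.07 in aged against young, Eed at 0.01 in NMN against aged and Setdb1 at 0.008 in NMN against young oocytes. With 1 library left out, of these 27 the following crossed 0 in aged against young oocytes: Dnmt3b (-0.062 to 0.224), Eed (-0.119 to 0.047), Ehmt1 (-0.039 to 0.16), Ep300 (-0.07 to 0.231), Hdac2 (-0.415 to 0.187) and Smarca4 (-0.308 to 0.139). In NMN against aged oocytes they were Dnmt1 (-0.11 to 0.103), Dnmt3l (-0.577 to 0.065) and Eed (-0.118 to 0.046), and in NMN against young oocytes Setdb1 (-0.104 to 0.007) and Tet3 (-0.029 to 0.226). Cbx1, Ezh1 and Dppa3 kept their direction in aged against young oocytes under all 19 alternatives, and Kat8 under the 18 that tested it (all but the minimum of 5 FPKM). The call of Atrx had an adjusted p of 0.00963 to 0.167 over its 19 alternatives. The replicate block changed no call of a regulator. Regulators under the 2 kb floor in a library are too low to be compared with confidence at this depth. That floor is lower for longer transcripts.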
